A study of Mus musculus with 11 samples.

Results

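Enzyme genes of the citrate cycle and of the entry of pyruvate into it were followed in the synovial membrane of DBA/1 mice. They are the 9 genes Pdha1, Pcx, Cs, Idh3a, Idh3g, Ogdh, Suclg1, Fh1 and Mdh2, chosen by symbol from a table of 18804 protein-coding genes. All 9 were found in the table and all 9 were among the 14892 genes with enough counts to be tested. Their estimated read counts ran from 578 (Pcx) to 22261 (also Pcx) per library, in libraries of 13677638 to 17631167 counts.

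The synovial membrane lines the joint, and RNA sequencing was used to ask whether diet-induced obesity alters experimental arthritis. The inbred strain DBA/1 is prone to collagen-induced arthritis (CIA), a joint inflammation that follows immunisation with type II collagen. There were 4 groups: sham mice on a regular diet (n = 3 libraries), CIA mice on a regular diet (n = 3), sham mice on a high-fat diet (n = 2) and CIA mice on a high-fat diet (n = 3), with replicates lettered a, b and c. The growth notes name the regular diet for every library, against the treatment labels and titles, which were followed here, so each diet comparison depends on the latter. Whether replicates are separate mice is not said, so that p-values describe the spread between libraries, which may be technical; ages and the duration of the diet are not given in the sources used here. All 14 genes of the synovial fibroblast and lining list had counts in every group, and their summed level was 16992 to 18759 counts-per-million (CPM) in regular-diet sham, 17422 to 29553 in regular-diet CIA, 29931 to 36498 in high-fat sham and 34576 to 45602 in high-fat CIA libraries. Regular-diet CIA replicate b stood apart from its group: across genes its mean correlation of log2 CPM was 0.897 with its own group and 0.933 with the high-fat CIA libraries. The main calls that change without it are given with and without it, but not every fold change is.

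The citrate cycle runs in the mitochondrial matrix and oxidises acetyl groups to carbon dioxide, passing electrons to the respiratory chain. Pyruvate enters either as acetyl-CoA, made by the pyruvate dehydrogenase complex, or as oxaloacetate, made by pyruvate carboxylase, which refills the cycle when intermediates are withdrawn. In fat cells, citrate is exported to the cytosol as the carbon source of fatty acid synthesis, and pyruvate carboxylase is abundant there. In activated macrophages the cycle is known to be rerouted towards itaconate and succinate. Transcript levels do not measure flux through these enzymes.

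The promoters of the genes that passed the test below are shown first. RefSeq promoter windows (GRCm38.p6, 250 bases before to 50 after an annotated start) were matched by symbol for 8 of the 9 genes, in 14 windows, and Idh3a had no entry. Capitals mark matches, on either strand, to TNAAGGTCA (an extended site of estrogen-related receptors), GCGCANGCG (the core of the nuclear respiratory factor NRF1 motif), the GC box spelled GGGCGG, or the box named for its letters, CCAAT. Pdha1 (chrX:160138381-160138680, minus strand), Idh3g (chrX:73786848-73787147, minus strand) and 2 alternative starts of Pcx (chr19:4510222-4510521 and chr19:4594069-4594368, plus strand) read, 5′ to 3′:
Pdha1: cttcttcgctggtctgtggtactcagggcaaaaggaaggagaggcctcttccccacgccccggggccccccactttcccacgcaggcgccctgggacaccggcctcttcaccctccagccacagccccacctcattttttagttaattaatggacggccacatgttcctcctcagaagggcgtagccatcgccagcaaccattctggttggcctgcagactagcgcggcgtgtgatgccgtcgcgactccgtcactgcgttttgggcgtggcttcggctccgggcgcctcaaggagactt
Idh3g: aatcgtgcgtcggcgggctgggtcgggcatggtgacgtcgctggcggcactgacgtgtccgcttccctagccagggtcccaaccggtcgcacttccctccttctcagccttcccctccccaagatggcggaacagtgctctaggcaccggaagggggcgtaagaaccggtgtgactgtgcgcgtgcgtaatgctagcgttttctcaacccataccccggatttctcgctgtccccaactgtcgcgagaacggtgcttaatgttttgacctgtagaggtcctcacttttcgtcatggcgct
Pcx window 1: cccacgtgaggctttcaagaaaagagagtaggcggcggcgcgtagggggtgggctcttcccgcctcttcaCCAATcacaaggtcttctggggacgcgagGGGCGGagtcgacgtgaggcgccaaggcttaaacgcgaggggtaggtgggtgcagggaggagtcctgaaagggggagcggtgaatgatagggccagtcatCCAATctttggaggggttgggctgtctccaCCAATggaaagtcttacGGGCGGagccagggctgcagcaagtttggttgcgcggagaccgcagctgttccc
Pcx window 2: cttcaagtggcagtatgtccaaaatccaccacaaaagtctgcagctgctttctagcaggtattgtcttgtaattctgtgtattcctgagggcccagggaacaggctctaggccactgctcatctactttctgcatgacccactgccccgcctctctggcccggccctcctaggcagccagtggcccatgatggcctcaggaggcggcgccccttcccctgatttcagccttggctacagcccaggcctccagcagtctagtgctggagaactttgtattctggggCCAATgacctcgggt

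The windows of Pdha1 and Idh3g held none of these motifs, while the first Pcx window held 2 GC boxes and 3 CCAAT boxes and the second a single CCAAT box 35 bases after its start. GC boxes occurred in windows of 5 of the 8 genes (Cs, Fh1, Mdh2, Ogdh and Pcx), in 8 of the 14 windows of the 8 genes, and in 35.7% of the 32851 windows of all genes. CCAAT boxes occurred in 4 of the 8 genes (Cs, Fh1, Ogdh and Pcx), in 10 of the 14 windows, and in 37.4% of all windows. The NRF1 core was found for Ogdh alone, in 2 of the 14 windows, against 6.25% of all windows. These 2 windows overlap, and their matches, at -15 and -36 from the annotated starts, are the same site. The estrogen-related receptor motif was found for 0 of the 8 genes and 0 of the 14 windows, against 1.28% of all windows. Ogdh supplied 6 of the 14 windows, several of which overlap, with a CCAAT box in each and a GC box in windows 1 to 4. The counts of windows thus lean on this gene. The motifs do not overlap each other in the printed windows. These matches are letters in a window and say nothing of binding. The genes themselves lie on 8 chromosomes (GRCm38.p6): Pdha1 (gene ID 18597) on chromosome X from 160122219 to 160138430, Idh3g (15929) on X from 73778963 to 73786897, and Pcx (18563) on 19 from 4510472 to 4621752. Cs (12974) lies on chromosome 10 from 128337727 to 128362482, Idh3a (67834) on 9 from 54586511 to 54604662, and Ogdh (18293) on 11 from 6291597 to 6359094. Suclg1 (56451) lies on chromosome 6 from 73248505 to 73276907, Fh1 (14194) on 1 from 175601378 to 175625635, and Mdh2 (17448) on 5 from 135778649 to 135790386.

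The fold changes of all 9 enzyme genes were below 0 in each of the 4 comparisons between groups. CIA was below sham on either diet, and the high-fat diet below the regular one in both sham and CIA mice. For CIA on the regular diet this held for 6 of 9 genes without replicate b. In the main edgeR fit only 3 genes passed the test, in 1 comparison. Other settings and the authors' own comparisons called more or fewer, as given below. The size differed between comparisons. The median log2 fold change of the 9 genes was -0.41 for CIA against sham on the regular diet and -0.63 on the high-fat diet, while the high-fat diet against the regular one gave -0.64 in sham mice and -1.07 in CIA mice. Over all 14892 genes the medians were 0.06, 0.02, -0.01 and -0.03. Comparisons that share a group share its deviations: CIA against sham on the high-fat diet and the diets in sham mice use the same 2 high-fat sham libraries, for example. In the plot of levels by library, regular-diet CIA replicate b held less of every one of the 9 transcripts than replicates a and c.

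**Figure D1:**
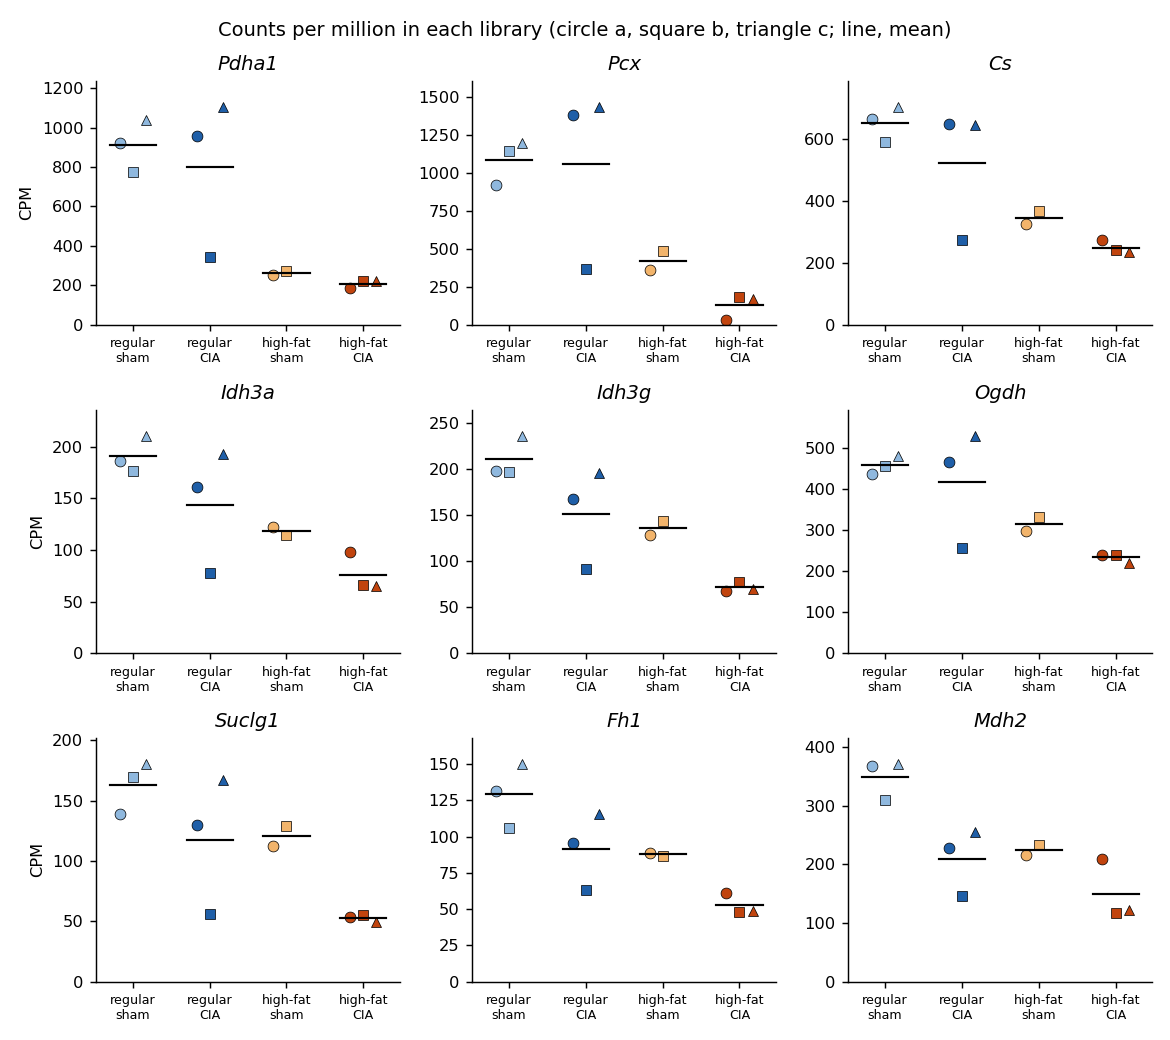
Each panel plots the counts-per-million (CPM, linear axis from 0) of 1 enzyme gene in the 11 libraries, by diet and by sham or CIA; a circle, square or triangle is replicate a, b or c and the line is the group mean. For Pdha1 the 5 high-fat libraries lie between 185 and 271 CPM, below all 6 regular-diet libraries, the lowest of which is regular-diet CIA replicate b at 342 CPM.

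In CIA against sham on the regular diet, 0 of the 9 genes passed edgeR's quasi-likelihood test (adjusted p under 0.05 over all genes), where 0.0269% of all genes did, 4 in number. At an unadjusted p under 0.05 the count was 1 of 9 (Mdh2), and 2579 of the 14892 genes tested. Both DESeq2 and limma called 0 of 9, with 783 and 3 genes called in all. Idh3g and Mdh2 were lower in every CIA library than in every sham library, 2 of 9, while 13.0% of all genes were lower without overlap. Without regular-diet CIA replicate b the fold changes of Pdha1, Pcx and Ogdh turned to 0.17, 0.37 and 0.12. Those of Cs, Idh3a, Idh3g, Suclg1, Fh1 and Mdh2 were then -0.01, -0.11, -0.21, -0.14, -0.29 and -0.53. Without replicate b the number lower without overlap was again 2 of 9, against 27.7% of all genes. Without replicate c it was 5 of 9, against 17.8%.

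In CIA against sham on the high-fat diet, all 9 genes were lower in every CIA library than in both sham libraries, where 27.7% of all genes were lower without overlap. By edgeR 0 of the 9 passed, while 5.75% of all genes were called lower and 5.06% higher. At an unadjusted p under 0.05 there were 4 of 9, and 4588 of the 14892 genes tested. DESeq2 called 3 of the 9 among 3254 genes in all, and limma on log2(FPKM + 1) called 1 among 1888. The adjusted p of Suclg1 (0.0549) and Idh3g (0.056) lay just above the threshold. Without regular-diet CIA replicate b, which belongs to neither group compared but shares the estimate of the spread, 4 genes were called lower (Idh3a, Idh3g, Suclg1 and Fh1), among 3738 genes in all. Without either high-fat sham library 0 of all genes were called, which holds for every call named below in this comparison.

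In high-fat against regular diet among sham mice, all 9 genes were again lower without overlap, with 22.1% of all genes lower in that way. EdgeR called 0 of the 9 and 0% of all genes in this comparison, which has 2 high-fat libraries; 2 of the 9 and 1165 genes in all had an unadjusted p under 0.05. DESeq2 called 1 of the 9 (Pdha1) and 114 genes, limma called 0 of the 9, and an edgeR fit of the sham libraries alone called 3 (Pdha1, Pcx and Cs) and 441 genes. Without regular-diet CIA replicate b edgeR called 1 of the 9 lower, among 6 genes in all.

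In high-fat against regular diet among CIA mice, 3 of the 9 genes fell: Pdha1, Pcx and Idh3g, where 2.89% of all genes were called lower and 1.05% higher. At an unadjusted p under 0.05 there were 8 of 9, all but Mdh2, and 3538 of the 14892 genes tested. Lower without overlap were 7 of 9, all but Idh3a and Mdh2, against 13.5% of all genes. The 3 calls were lost when any of 10 libraries was left out or only the CIA libraries were fitted, and each such fit called 0 genes in all, so that this holds for every gene named below as called in this comparison. Without regular-diet CIA replicate b 8 of the 9 were called lower, among 3224 genes called in all. The 9 genes were then all lower without overlap, against 26.9% of all genes. DESeq2 on all libraries called 8 of the 9, among 2000 genes in all.

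The difference between the CIA effects on the 2 diets (interaction) was tested for each gene. EdgeR called 0 of the 9 and 0% of all genes, with 0 of the 9 and 635 genes at an unadjusted p under 0.05; DESeq2 called 0 of the 9 and 21 genes, and limma 0 of the 9. The interaction was negative for 8 of the 9 genes, from -1.68 ± 0.91 (log2 ± SE) for Pcx to -0.13 ± 0.55 for Pdha1, and 0.15 ± 0.41 for Mdh2, with adjusted p from 0.989 to 0.994. Without regular-diet CIA replicate b the estimates of these 8 genes ran from -2.08 for Pcx to -0.45 for Fh1, with -0.50 for Pdha1, and edgeR again called 0 of the 9.

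**Figure D2:**
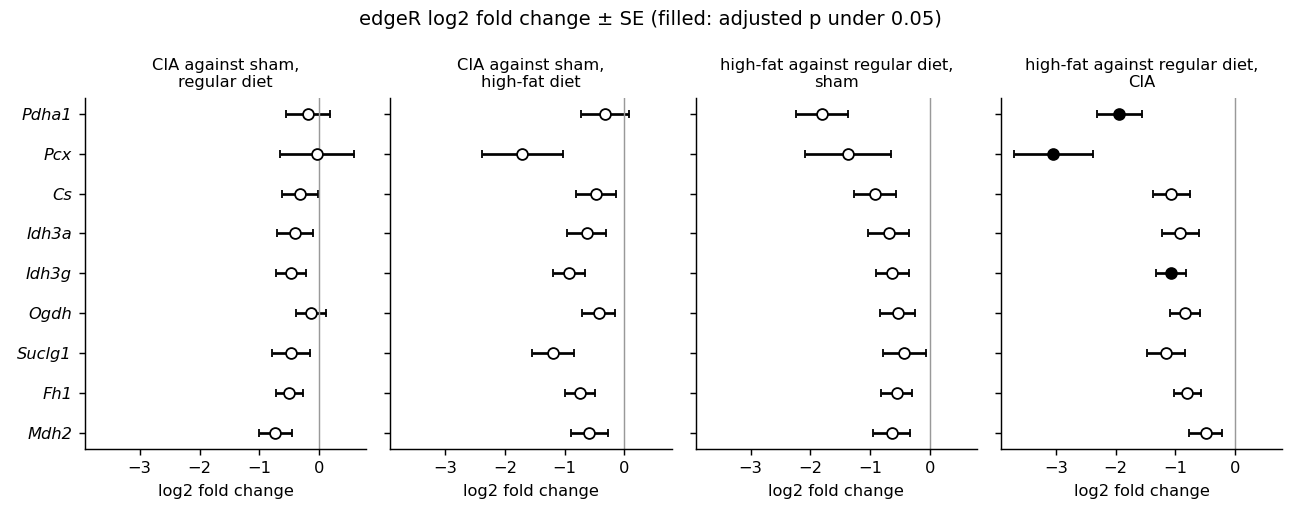
Points are edgeR log2 fold changes of the 9 enzyme genes in the 4 comparisons and bars are ± 1 SE; filled points passed an adjusted p of 0.05. All 36 points lie below 0, and the filled ones are Pdha1, Pcx and Idh3g in high-fat against regular diet among CIA mice.

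Pyruvate entry showed the largest differences between diets. Pdha1 encodes the alpha subunit of pyruvate dehydrogenase, the catalytic component whose phosphorylation switches the complex off. Pdha1 stood at 923, 777 and 1037 CPM in regular-diet sham a, b and c and at 956, 342 and 1104 in regular-diet CIA. It stood at 251 and 271 CPM in high-fat sham a and b and at 185, 220.1 and 220.9 in high-fat CIA a, b and c. The 2 diets did not overlap, and on the high-fat diet the CIA libraries were all below sham by a small margin. The log2 fold change of high-fat against regular diet was -1.80 ± 0.44 (SE) in sham mice (adjusted p = 0.429 in edgeR) and -1.94 ± 0.38 in CIA mice (adjusted p = 0.0346), a level 3.84-fold lower. For CIA against sham it was -0.19 ± 0.37 on the regular diet (adjusted p = 0.817) and -0.32 ± 0.41 on the high-fat diet (adjusted p = 0.618). Pdha1 overlaps Map3k15, which held 16 to 168 counts per library against at least 3181 for Pdha1, and strand is not stated.

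Pcx encodes pyruvate carboxylase, the biotin enzyme that makes oxaloacetate from pyruvate. Its level was 918, 1146 and 1193 CPM in regular-diet sham and 1382, 365 and 1431 in regular-diet CIA a, b and c. High-fat sham a and b held 359 and 483 CPM, and high-fat CIA a, b and c held 33.6, 180.5 and 171. The high-fat CIA libraries were thus lowest, replicate a by far, and regular-diet CIA replicate b lay within the range of high-fat sham. High-fat against regular diet gave -3.04 ± 0.66 (SE) on the log2 scale in CIA mice (adjusted p = 0.0405 in edgeR), 8.25-fold lower, and -1.37 ± 0.72 in sham mice (adjusted p = 0.694). CIA against sham gave -1.71 ± 0.68 on the high-fat diet (adjusted p = 0.12) and -0.04 ± 0.61 on the regular diet (adjusted p = 0.983). Without high-fat CIA replicate a the high-fat CIA effect was -1.26 and the diet effect in CIA mice -2.59. Pcx overlaps Lrfn4, which held 119 to 425 counts per library.

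Cs encodes citrate synthase, which joins acetyl-CoA to oxaloacetate and is widely used as a gauge of mitochondrial content. It stood at 665, 593 and 705 CPM in regular-diet sham and at 649.9, 273 and 648 in regular-diet CIA a, b and c. It stood at 327 and 368 CPM in high-fat sham and at 273, 241 and 235 in high-fat CIA. High-fat CIA replicate a and regular-diet CIA replicate b were thus nearly level, and the other regular-diet libraries were all above the high-fat ones. High-fat against regular diet gave -1.07 ± 0.31 (SE) in CIA mice (adjusted p = 0.0738 in edgeR) and -0.91 ± 0.35 in sham mice (adjusted p = 0.559), both on the log2 scale. CIA against sham gave -0.32 ± 0.30 on the regular diet (-0.01 without regular-diet CIA replicate b) and -0.48 ± 0.33 on the high-fat diet. Csl, a near copy of Cs, held 0 to 1 counts per library.

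Idh3a and Idh3g encode the catalytic alpha and the regulatory gamma subunit of the NAD-dependent isocitrate dehydrogenase, a rate-controlling step of the cycle. Idh3g was 198, 197 and 236 CPM in regular-diet sham and 168, 91.7 and 196 in regular-diet CIA. It was 129 and 144 CPM in high-fat sham and 68.1, 77.6 and 69.5 in high-fat CIA a, b and c. All CIA libraries were below all sham libraries of their diet, and all high-fat CIA libraries below every other library. Idh3g fell by 1.08 ± 0.25 (SE) on the log2 scale with the high-fat diet in CIA mice (adjusted p = 0.0453 in edgeR); it was -0.93 ± 0.27 for CIA against sham on the high-fat diet (adjusted p = 0.056), -0.47 ± 0.25 on the regular diet, and -0.63 ± 0.28 for the diets in sham mice. The Idh3g call was also lost with RLE scaling, without a filter on low counts and with limma on FPKM (adjusted p of 0.0501, 0.0562 and 0.0504, in a range of 0.00149 to 0.252 over all alternatives).

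Idh3a, whose product carries the active site, was 186, 176 and 211 CPM in regular-diet sham and 161, 77.8 and 192 in regular-diet CIA. It was 122 and 115 CPM in high-fat sham and 97.9, 65.7 and 65.0 in high-fat CIA. High-fat CIA replicate a was above regular-diet CIA replicate b, the reason that these groups overlapped. The log2 fold changes were -0.92 ± 0.30 (SE) for diet in CIA mice (adjusted p = 0.108 in edgeR) and -0.63 ± 0.33 for CIA on the high-fat diet (adjusted p = 0.223).

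Ogdh encodes the thiamine-dependent component of the 2-oxoglutarate dehydrogenase complex. It stood at 437, 457 and 482 CPM in regular-diet sham and at 466, 256 and 531 in regular-diet CIA. It stood at 298 and 333 CPM in high-fat sham and at 239.9, 240.4 and 221 in high-fat CIA. The high-fat libraries lay close together within each group, with CIA below sham. The log2 fold change for diet in CIA mice was -0.84 ± 0.26 (SE, adjusted p = 0.0844 in edgeR), and for CIA on the high-fat diet -0.43 ± 0.28 (adjusted p = 0.318).

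Suclg1 encodes the alpha subunit shared by both succinyl-CoA ligases, which make nucleoside triphosphate directly from the cycle. It was 139, 169.7 and 180.3 CPM in regular-diet sham and 129.6, 56.0 and 167 in regular-diet CIA. It was 113 and 129.4 CPM in high-fat sham and 53.6, 54.9 and 49.2 in high-fat CIA. Among the 9 genes, Suclg1 was the one with the smallest diet difference in sham mice, -0.43 ± 0.36 (log2 ± SE, adjusted p = 0.854 in edgeR), while CIA against sham on the high-fat diet gave -1.20 ± 0.35 (adjusted p = 0.0549). The diet difference in CIA mice was -1.16 ± 0.32 (adjusted p = 0.0702).

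Fh1 encodes fumarase, and loss of its human counterpart FH is known to raise fumarate in tumours. It was 131, 106 and 149.9 CPM in regular-diet sham and 95.6, 63.2 and 116 in regular-diet CIA. It was 88.8 and 86.8 CPM in high-fat sham and 61.0, 48.0 and 48.9 in high-fat CIA. All high-fat CIA libraries were below every other library, the nearest being regular-diet CIA replicate b. The log2 fold changes were -0.80 ± 0.23 (SE) for diet in CIA mice (adjusted p = 0.0738 in edgeR), -0.74 ± 0.25 for CIA on the high-fat diet (adjusted p = 0.0804) and -0.49 ± 0.23 for CIA on the regular diet (adjusted p = 0.297).

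Mdh2 encodes mitochondrial malate dehydrogenase, which closes the cycle and serves the malate-aspartate shuttle. It was 368, 309.9 and 371 CPM in regular-diet sham and 228, 147 and 256 in regular-diet CIA. It was 216 and 234 CPM in high-fat sham and 210.0, 117 and 122 in high-fat CIA a, b and c. Both CIA groups were below their sham group without overlap, but high-fat CIA replicate a lay close to high-fat sham. Mdh2 had the largest CIA difference of the 9 genes on the regular diet, -0.73 ± 0.28 (log2 ± SE, adjusted p = 0.226 in edgeR), and the smallest diet difference in CIA mice, -0.49 ± 0.28 (adjusted p = 0.314).

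Levels between genes were compared per length, as the authors' transcripts-per-million (TPM). In regular-diet sham libraries (n = 3) Pdha1 stood highest at 496 ± 99.2 (mean ± SD), followed by Mdh2 at 482 ± 69.6, Pcx at 401 ± 106 and Cs at 361 ± 51.7. Idh3g stood at 279.9 ± 61.7 TPM, Suclg1 at 206 ± 55.0, Ogdh at 158 ± 27.7, Fh1 at 133 ± 29.9 and Idh3a at 126 ± 23.9. The range of each gene over these libraries overlapped that of its neighbour in this order. Such overlap does not compare genes within a library, and differences between neighbours were not tested. Within libraries, Mdh2 was above Pcx in all 3, while Pdha1 and Mdh2, and Pcx and Cs, changed order between libraries. In high-fat CIA libraries (n = 3) the order began with Mdh2 at 279 ± 69.0 TPM, Cs at 184 ± 2.91 and Pdha1 at 158 ± 29.3. Then came Idh3g at 131 ± 17.9, Ogdh at 106 ± 7.41, Suclg1 at 90.4 ± 7.60, Fh1 at 74.2 ± 3.56, Idh3a at 68.3 ± 9.83 and Pcx at 67.1 ± 45.1. Pdha1 had thus moved below Mdh2 and Cs with no overlap, and the mean of Pcx from the third place to the last. That place rests on replicate a, at 15.1 TPM; replicates b and c held 93.7 and 92.6 TPM, above Fh1 and Idh3a. Of the neighbours in this order, Mdh2 and Cs, Cs and Pdha1, Ogdh and Suclg1, and Suclg1 and Fh1 did not overlap, and the others did. In high-fat sham (n = 2) the order was Mdh2 at 365 ± 14.7, Cs at 224 ± 15.5, Idh3g at 212 ± 13.3, Pcx at 179.6 ± 34.5, Suclg1 at 177 ± 14.3 and Pdha1 at 167 ± 6.19 TPM, with the other 3 lower. In regular-diet CIA (n = 3) Pdha1 at 562 ± 293 and Pcx at 499 ± 293 TPM were highest, with SDs widened by replicate b.

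Ratios within a library do not depend on how libraries are scaled to each other; the pairs were chosen after the values were seen, so no test is given. The TPM ratio of Pdha1 to Cs was 1.26 to 1.74 in the 6 regular-diet libraries and 0.687 to 0.956 in the 5 high-fat libraries. The diets did not overlap, and regular-diet CIA replicate b, at 1.26, stayed with its diet. The ratio of Pcx to Cs was 0.896 to 1.51 on the regular diet, 0.728 and 0.867 in high-fat sham, and 0.0833, 0.506 and 0.496 in high-fat CIA a, b and c. High-fat CIA was lowest here too. The ratio of Idh3a to Idh3g, subunits of the same enzyme, was 0.398 to 0.489 in 10 libraries and 0.715 in high-fat CIA replicate a.

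**Figure D3:**
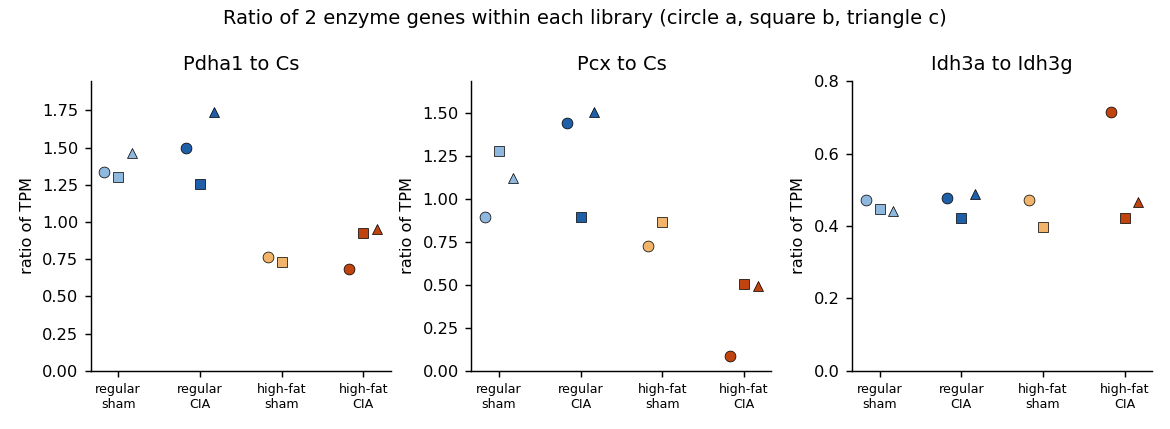
Points are ratios of 2 genes' TPM within each of the 11 libraries (linear axes from 0), by group, with circle, square and triangle for replicates a, b and c. Pdha1 to Cs separates the 6 regular-diet libraries (1.26 to 1.74) from the 5 high-fat ones (0.687 to 0.956), and high-fat CIA replicate a stands apart for Pcx to Cs (0.0833) and Idh3a to Idh3g (0.715).

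The remaining genes of the cycle and of the pyruvate dehydrogenase complex, 14 in number and all tested, were lower as well. Fold changes of all 14 were below 0 for CIA against sham on both diets and for the diets in CIA mice. The medians were -0.37, -0.51 and -0.78 on the log2 scale. On the regular diet, though, the median CIA value of Dld, Dlat and Sdha exceeded the highest sham value. These were 273 against 262 CPM, 198 against 197 and 779 against 778. There 4 of the 14 were lower without overlap, with or without regular-diet CIA replicate b, against 13.0% and 27.7% of all genes. For the diets in sham mice 13 of 14 were lower, with a median of -0.66. The exception was Idh2, the NADP-dependent isocitrate dehydrogenase, at 181, 160.4 and 155 CPM in regular-diet sham and 187 and 198 in high-fat sham. Idh2 fell by 1.18 ± 0.23 (SE) with CIA on the high-fat diet (adjusted p = 0.0224 in edgeR), to 105, 73.1 and 77.4 CPM. It was the only call among the 14 in that comparison, and 0 of the 14 were called lower there without high-fat CIA replicate b. With the high-fat diet in CIA mice 2 of the 14 fell: Pdhb, the beta subunit that pairs with the Pdha1 product (-1.31 ± 0.31, adjusted p = 0.0481), and Idh3b, the remaining isocitrate dehydrogenase subunit (-1.04 ± 0.23, adjusted p = 0.0401). Over all genes 5.75% were called lower for CIA on the high-fat diet and 2.89% for diet in CIA mice. EdgeR called 0 of the 14 in the other 2 comparisons. At an unadjusted p under 0.05 there were 3 for CIA on the regular diet and 8 for diet in sham mice. Of the 14892 genes tested, 2579 and 1165 had such a p in these comparisons. Without regular-diet CIA replicate b the calls were 8 of 14 for CIA on the high-fat diet and 11 of 14 for diet in CIA mice. Those fits called 3738 and 3224 genes in all.

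Within the pyruvate dehydrogenase complex, the diet difference in sham mice was -1.80 ± 0.44 for Pdha1, -1.12 ± 0.35 for Pdhb and -1.14 ± 0.34 for Dlat, the acetyltransferase core, against -0.58 ± 0.33 for Dld, the dehydrogenase it shares with other complexes (log2 ± SE). Among CIA mice it was -1.94 ± 0.38, -1.31 ± 0.31, -1.10 ± 0.30 and -0.80 ± 0.30 for the same genes. In both, Pdha1 had the most negative estimate of these 4 genes; the differences between subunits were not tested. Dlst, the core of the 2-oxoglutarate complex, was the gene nearest to 0 of the 22 plotted for CIA against sham, with -0.03 ± 0.19 on the regular and -0.06 ± 0.22 on the high-fat diet. Sdha, the flavoprotein of succinate dehydrogenase, gave -1.22 ± 0.36 for diet in CIA mice (adjusted p = 0.0765 in edgeR). In the same comparison Suclg2 and Sucla2, which give succinyl-CoA ligase its nucleotide preference, gave -0.99 ± 0.25 and -0.75 ± 0.27.

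**Figure D4:**
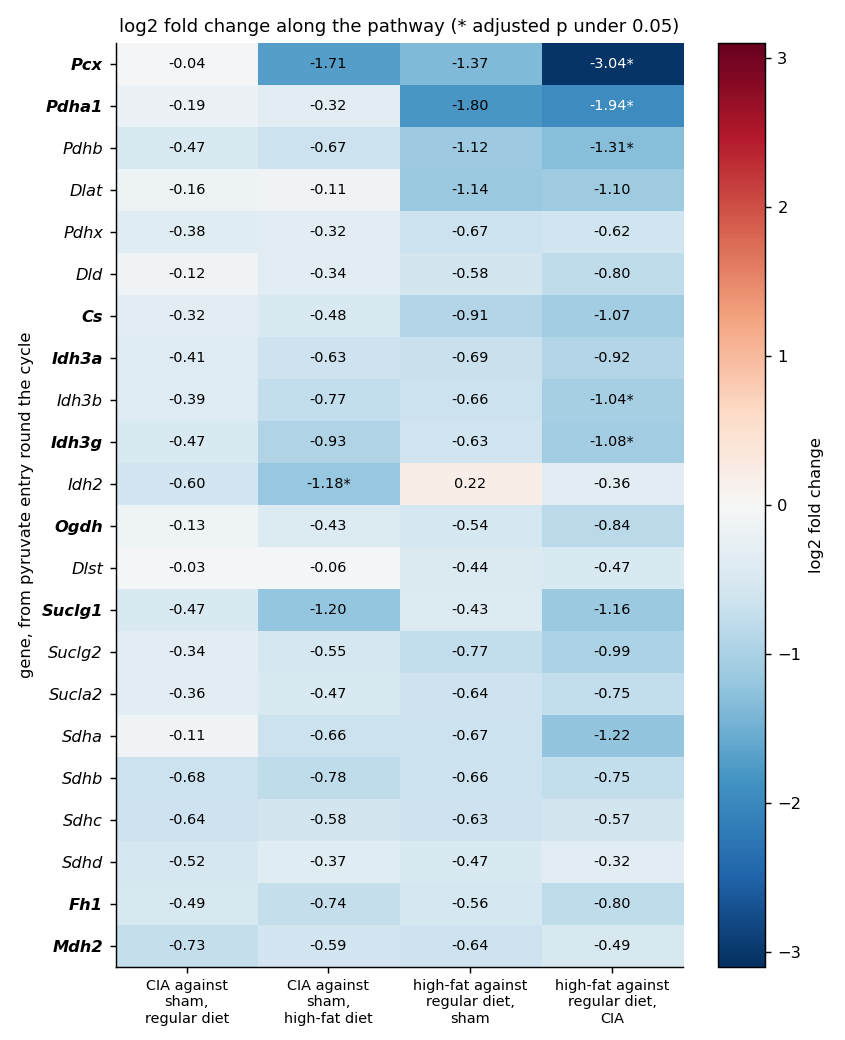
The heat map gives edgeR log2 fold changes (colour and printed value) of 22 genes in order from pyruvate entry round the cycle, with the 9 enzyme genes in bold, for the 4 comparisons; an asterisk marks an adjusted p under 0.05. Only Idh2 in high-fat against regular diet among sham mice is above 0 (0.22), and the lowest value is Pcx among CIA mice (-3.04).

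Upstream of the cycle, 7 genes for pyruvate carriers and the lactate side were read. For diet in CIA mice 2.89% of all genes were called lower and 1.05% higher, and for CIA on the high-fat diet 5.75% and 5.06%. Of the 7 genes, 4 fell with the high-fat diet in CIA mice. They were Mpc1 (-1.98 ± 0.37, adjusted p = 0.0345) and Mpc2 (-1.41 ± 0.32, adjusted p = 0.0418), which form the mitochondrial pyruvate carrier, the lactate and pyruvate transporter gene Slc16a7 (-1.56 ± 0.33, adjusted p = 0.0375) and Ldhb (-1.21 ± 0.29, adjusted p = 0.0486), a lactate dehydrogenase subunit (log2 ± SE, edgeR). Mpc1 stood at 401, 278 and 318 CPM in regular-diet sham, 300.3, 98.7 and 296 in regular-diet CIA, 112 and 121 in high-fat sham and 53.1, 62.1 and 60.5 in high-fat CIA. Its groups followed the order seen for Idh3g, with high-fat CIA lowest. Of the 3 of the 7 that did not pass the test for diet in CIA mice, the lactate transporter genes Slc16a3 (2.06 ± 0.68, adjusted p = 0.107) and Slc16a1 (0.96 ± 0.47, adjusted p = 0.252) had values above 0 (log2 ± SE, edgeR). Ldhb also fell with CIA on the high-fat diet (-1.43 ± 0.31, adjusted p = 0.0272), the only call of the 7 there, while Ldha, the other subunit, gave -0.05 ± 0.38. Of the 7 pyruvate dehydrogenase kinases and phosphatases, Pdk3, a kinase that inhibits the complex, rose both with CIA on the high-fat diet (0.73 ± 0.20, adjusted p = 0.0442) and with the high-fat diet in CIA mice (0.80 ± 0.17, adjusted p = 0.0405), and Pdk1, another such kinase, fell in the latter (-1.57 ± 0.35, adjusted p = 0.0405). Pdk4, the kinase induced by fasting, ranged from 26.3 to 264 CPM within high-fat CIA alone.

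Of 19 genes that exchange intermediates with the cycle, 5 fell and 1 rose with the high-fat diet in CIA mice. Of all genes 2.89% were called lower and 1.05% higher in this comparison. The 3 largest decreases were in Me1, the malic enzyme (-3.59 ± 0.58, adjusted p = 0.033), Slc25a1, the citrate carrier (-3.33 ± 0.53, adjusted p = 0.033), and Acly, ATP citrate lyase (-2.49 ± 0.49, adjusted p = 0.0346). Slc25a1 stood at 1208, 783 and 1060.3 CPM in regular-diet sham, 939, 251 and 905 in regular-diet CIA, 152 and 184 in high-fat sham and 38.5, 69.3 and 100.2 in high-fat CIA. The 2 diets did not overlap. Slc25a10, the dicarboxylate carrier, fell in this comparison (-1.81 ± 0.43, adjusted p = 0.0481) and with CIA on the high-fat diet (-1.71 ± 0.46, adjusted p = 0.0437). The fifth that fell, Aco1 (-1.48 ± 0.30), and the one that rose, Got1 (0.96 ± 0.19), are named after their values were seen.

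Of 5 genes around itaconate and succinate, 2 rose and 1 fell with CIA on the high-fat diet. Of all genes 5.06% were called higher and 5.75% lower there. Acod1, whose enzyme diverts cis-aconitate from the cycle to itaconate in activated macrophages, had 0, 1 and 0 counts in regular-diet sham and 1 and 0 in high-fat sham. It had 14, 236 and 8 counts in regular-diet CIA a, b and c and 270, 3469 and 112 in high-fat CIA, where it rose (adjusted p = 0.0386 in edgeR). Replicate b held the most in both CIA groups. Hif1a, a transcription factor stabilised by succinate in macrophages, rose with CIA on the high-fat diet (2.21 ± 0.45, adjusted p = 0.0236), and Sucnr1, the succinate receptor, fell from 32.6 and 36.8 to 2.91, 6.87 and 5.77 CPM (-2.74 ± 0.47, adjusted p = 0.0185). Among 13 tested regulators and gauges of mitochondrial content, Esrra, the estrogen-related receptor alpha that drives oxidative genes, was the only call (-0.84 ± 0.20 for diet in CIA mice, adjusted p = 0.0486). Its partner Ppargc1a gave -1.53 ± 0.50 (adjusted p = 0.105 in edgeR) in the same comparison, where 2.89% of all genes were called lower.

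Markers of other cell types also differed between groups. The summed level of 17 adipocyte markers was 69181 to 88083 CPM in regular-diet sham, 24013 to 85788 in regular-diet CIA with the lowest in replicate b, 27328 to 33799 in high-fat sham and 3622 to 13568 in high-fat CIA with the lowest in replicate a. None of the 17 was at 0 in any group. The summed level of the 9 enzymes was 3931 to 4565, 1672 to 4641, 1903 to 2163 and 1202 to 1246 CPM in the same groups, again with regular-diet CIA replicate b below high-fat sham. High-fat CIA replicate a had the least adipocyte RNA. The enzyme sums of high-fat CIA a, b and c were 1222, 1246 and 1202 CPM. Of the adipocyte markers, 17 of 17 were lower for CIA on the high-fat diet and for the high-fat diet in CIA mice. Past the test were 5 (Lep, Adipoq, Cidec, Pparg and Lipe) and 3 (Fasn, Scd1 and Pparg), named after their values were seen. Over all genes 5.75% and 2.89% were called lower in these comparisons. For CIA on the regular diet 12 were lower and 5 higher, and for diet in sham mice 15 were lower and 2 higher. Mean Lep was 187 CPM in regular-diet and 454 in high-fat sham, while mean Scd1 was 25687 and 4869. The medians of the 17 markers were -0.35 and -1.84 for CIA on the regular and high-fat diet, and -0.57 and -1.98 for diet in sham and CIA mice. In bulk tissue, fewer cells of a type and less RNA per cell cannot be told apart, and the part of adipocytes in the enzyme differences was not tested.

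**Figure D5:**
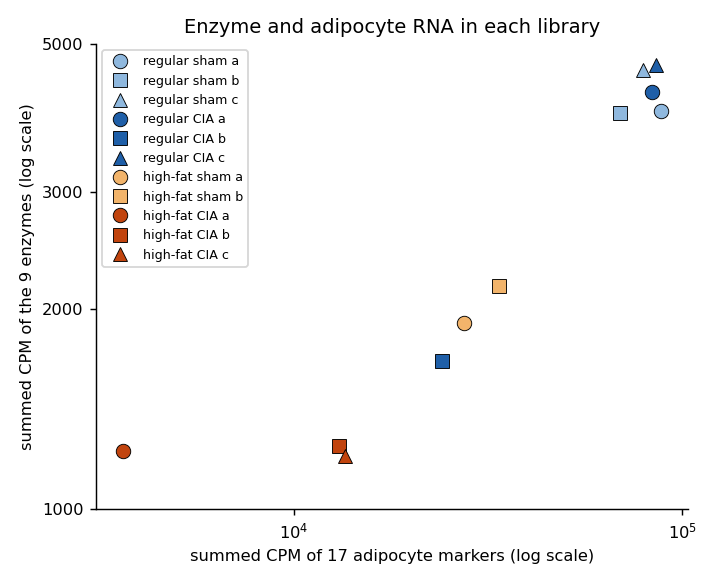
Each point is 1 of the 11 libraries; the x axis is the summed CPM of 17 adipocyte markers and the y axis the summed CPM of the 9 enzyme genes, both on log scales. Regular-diet CIA replicate b (24013 and 1672 CPM) lies near the high-fat sham libraries, and high-fat CIA replicate a has the lowest adipocyte sum (3622 CPM) at an enzyme sum of 1222 CPM.

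Of the other marker lists, macrophage and monocyte markers (14 genes, none at 0) summed to 1249 to 1619 CPM in regular-diet sham, 1488 to 2432 in regular-diet CIA, 2203 to 2708 in high-fat sham and 3684 to 5039 in high-fat CIA. The summed level was thus highest in high-fat CIA, where the mean level of each of the 9 enzymes was lowest; of the 14 markers, 9 were higher and 5 lower for CIA against sham on the high-fat diet. Markers of skeletal muscle, a tissue rich in cycle enzymes, summed to 1313 CPM in regular-diet sham replicate c, 107 and 284 in high-fat sham and 19.1 to 75.9 elsewhere, with Myh7 at 0 in both sham groups. That replicate had the highest level of each of the 9 enzymes within its group. Leaving it out gave diet differences in sham mice of the same sign for all 9, and the part of muscle was not tested. Neutrophil markers (12 genes, none at 0) summed to 78.2 to 299.9 CPM in regular-diet sham, 522 to 1196 in regular-diet CIA, 2276 and 34.2 in high-fat sham a and b, and 1474 to 8454 in high-fat CIA. All 12 had values above 0 in each of the 4 comparisons and edgeR called 0 of them, with medians of 2.12 and 2.34 for CIA on the regular and the high-fat diet and of 2.55 and 2.27 for diet in sham and CIA mice (log2). At an unadjusted p under 0.05 there were 4, 4, 1 and 2 of the 12, in the same order. The same held for 2579, 4588, 1165 and 3538 of the 14892 genes tested. The summed level of the 9 enzymes was 1903 and 2163 CPM in high-fat sham a and b. Brown fat markers, which share Cidea with the adipocyte list, summed to 549.5 to 627 CPM in regular-diet sham and 138 to 489 in regular-diet CIA. They summed to 117 to 159 CPM in high-fat sham and 21.5 to 152 in high-fat CIA. Zic1 was at 0 in regular-diet sham, and Ucp1, the defining gene, stood at 1.08 to 7.34 CPM over all libraries. The part of these cells in the enzyme differences was not tested.

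The 9 genes varied together across the 11 libraries. Pearson's r of log2 CPM between pairs ran from 0.597 to 0.984, with a median of 0.916 over 36 pairs, as a description over libraries that share group and composition. Outside the 9, the 5 tested genes most like their mean standardised log2 CPM were Suclg2 (r = 0.992), Uqcrc2 (0.99), Coq5 (0.989), Galm (0.989) and Acat2 (0.988), over 11 libraries. Suclg2 is a partner of Suclg1 in succinyl-CoA ligase, Uqcrc2 a core protein of respiratory complex III, and Coq5 a methyltransferase of ubiquinone synthesis. Galm encodes galactose mutarotase and Acat2 the cytosolic acetoacetyl-CoA thiolase.

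The authors' deposited table, made with DESeq2, gives its own comparisons, and its q-values differ from the tests above. By the authors' deposited table, 2 of the 9 genes are lower at a q-value under 0.05 for high-fat against regular diet in CIA mice, Pdha1 (q = 0.00529) and Pcx (q = 0.00331), among 695 genes in all. For the diets in sham mice the authors' deposited table has 7 of the 9 lower, all but Suclg1 and Fh1, among 1372 genes, and for CIA on the high-fat diet 5 of the 9 (Cs, Idh3g, Ogdh, Suclg1 and Fh1) among 3488. For CIA on the regular diet the authors' deposited table has 0 of the 9 among 445.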

How the data were processed

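Reads were aligned and quantified by the authors; DESeq2 1.4.5, RSEM 1.2.12, Bowtie2 2.2.5 and GRCm38.p6 stand in the submitters' processing notes, without roles. Per the labels' protocols, Trizol was used on the tissue to obtain total RNA, and a BGI kit for the libraries; strand is not stated. The deposited table holds, per the file headers, expected counts per gene, FPKM and TPM, and the authors' log2 fold changes and DESeq2 q-values. Of the deposited expected counts 11.98% were not whole (tolerance 0.001), and they were rounded. All 11 count columns matched a sample by name.

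Counts were filtered with filterByExpr (14892 of 18804 genes kept; 507 had no count), scaled with TMM and fitted with edgeR 4.0.16 (R 4.3.3; glmQLFit, robust, glmQLFTest), 1 mean per group over all 11 libraries, because high-fat sham has 2. Two-sided p-values were Benjamini-Hochberg adjusted over all genes in each of 5 contrasts; a gene was called below 0.05. SE is the absolute log2 fold change over the square root of F. CPM use TMM-scaled totals, and log2 CPM a prior count of 2. Alternatives were RLE and upper-quartile scaling, no filter, DESeq2 1.42.0, limma 3.58.1 on log2(FPKM + 1), a replicate block, each library left out in turn, and fits restricted to the compared groups. Counts of other cycle genes and of non-overlap under these were added after seeing the data.

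The 9 genes and the 16 gene lists were chosen with earlier results of these data known. All 9 are named in each contrast, with up to 4 called genes per pathway list and contrast by size of change, and preset genes as values; some that qualify are not reported here. Gene positions are RefSeq's for GRCm38.p6, matched by gene ID; the table's own coordinates were not used. Motifs were searched with Python 3.11.15.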

Additional observations from a re-analysis of the deposited data

How the results depend on the processing

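Over the single-gene values of the 9 enzymes, the settings other than leaving out a library gave 280 results on the same side of the threshold, 17 newly past it, 9 no longer past it (all for diet in CIA mice) and 0 of opposite sign. Leaving out a library gave 442, 11, 30 and 12. Those of opposite sign were CIA on the regular diet for Pdha1 (-0.52 to 0.17), Pcx (-0.34 to 0.37) and Ogdh (-0.38 to 0.12), and the interaction for Pdha1 (-0.50 to 0.19), Cs (-0.46 to 0.0535), Idh3a (-0.52 to 0.0697) and Mdh2 (-0.18 to 0.35).

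For CIA on the regular diet the genes called over all genes numbered 783 with DESeq2, 0 with only the groups compared and 0 to 16 leaving out a library (16 without regular-diet CIA replicate c, 0 without regular-diet sham a or c); non-overlap covered 2 to 5 enzymes. For CIA on the high-fat diet they numbered 3254 with DESeq2, 492 with only the groups compared and 0 to 3738 leaving out a library (0 without high-fat sham a or b, when the lone sham library is assumed to vary like the other groups). Enzymes called lower there were 2 with upper-quartile scaling, 3 with DESeq2, 1 with limma, 2 with only the groups compared and 0 to 4 leaving out a library; other cycle genes, 1 in the main result, were 3 with DESeq2, 2 with only the groups compared and 0 to 8.

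For diet in sham mice, DESeq2 called 114 genes and 1 enzyme, only the groups compared 441 genes, 3 enzymes and 5 other cycle genes, and leaving out a library 0 to 6 genes and 0 to 1 enzymes. For diet in CIA mice, DESeq2 called 2000 genes, 8 enzymes and 7 other cycle genes, and only the groups compared 0 of each. Leaving out a library gave 0 to 3224 genes, 0 to 8 enzymes and 0 to 11 other cycle genes, all above 0 only without regular-diet CIA replicate b; the enzymes lower without overlap were then 7 to 9. Other cycle genes called were 1 with RLE scaling and 0 without a filter. The interaction had 21 genes with DESeq2. The cause of these changes was not tested.

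With the replicate letter as a replicate block, 776 genes were called for CIA on the high-fat diet, and 0 genes, 0 enzymes and 0 other cycle genes for diet in CIA mice. Of 15 pairs of libraries with the same letter, 5 had a correlation of deviations over 0.1 (-0.426 to 0.463) and 3 of 11 libraries correlated best with their own letter, so the letters were not taken as pairs. The enzymes had at least 578 counts per library.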
